A study of Homo sapiens with 6 samples.

Results

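Immediate early genes outside the AP-1 family were followed in CAL27 cells, an established human line of tongue squamous cell carcinoma. The set holds 10 genes, EGR1, EGR2, EGR3, IER2, IER3, IER5, NR4A1, KLF6, SRF and MYC, chosen by symbol. Each matched 1 row among the 32353 genes of the deposited count table and 1 row of the FPKM table, and all 10 were among the 17887 genes that passed a filter on low counts. Total RNA had been sequenced from 3 libraries of cells overexpressing RBM24, an RNA-binding protein best known for splicing control in heart and skeletal muscle, and from 3 libraries of cells given a control plasmid. All libraries come from the same cell line and no other agent is named. The sources used here do not give the vector, the time between plasmid and harvest, the serum conditions, or whether replicates were separate cultures. A p-value therefore reflects the variation among these 6 libraries alone, and that variation may be technical. The study set out to find genes whose expression or splicing depends on RBM24, and its title links the protein to apoptosis.

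Immediate early genes are transcribed quickly after a growth factor, a stress or serum reaches a cell, without new protein synthesis. Much of this response runs from the EGF receptor through RAS and ERK to ternary complex factors such as ELK1, which sit beside serum response factor (SRF) on CArG boxes in the promoters. Actin dynamics reach the same factor through the MRTF coactivators, and many of the transcripts are short-lived because decay factors bind AU-rich elements in them. The products are mostly transcription factors, and EGR1, MYC and KLF6 are widely studied in squamous and other carcinomas.

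The libraries held 53558773 to 68804210 gene counts with RBM24 and 55139782 to 62156648 with the control plasmid. RBM24 itself had 8651, 5918 and 7648 counts in the RBM24 libraries and 129, 159 and 220 in the control libraries, a log2 fold change of 5.34 (edgeR quasi-likelihood test, adjusted p = 2.16e-15). All 12 squamous epithelial markers fixed for the check passed the filter, among them KRT5, TP63 and SFN. Only 4 of 9 fibroblast, 2 of 9 immune and 3 of 5 endothelial markers passed it, and the immune pair were CD14, at 964 to 1258 counts in every library, and CD68, at 49 to 83. The pan-leukocyte gene PTPRC had at most 3 counts and CD3E at most 1. Of the fibroblast and endothelial markers that passed, COL1A1 had 540 to 803 counts, PDGFRB 151 to 226 and CDH5 464 to 696. COL1A2, LUM, PECAM1 and VWF had at most 68. The lowest squamous marker, KRT14, had 220 to 297 counts, under COL1A1 and CDH5. On the first principal component, with 33% of the variance, control library 1 lay at 33.4, the other libraries between -15.4 and 4.95.

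Promoter sequences are shown for IER2, the member that passed the test, and for the 3 members whose promoter window held a CArG box, the sequence that SRF recognises. Each runs from 250 bases before to 50 bases after a RefSeq transcript start (GRCh38.p14), 5′ to 3′ on the strand of the gene. Capitals mark CArG boxes in EGR1 (chr5:138465229-138465528, plus strand), SRF (chr6:43171019-43171318, plus strand) and EGR2 (chr10:62816317-62816616, minus strand). In IER2 (chr19:13150161-13150460, plus strand), whose window held no CArG box, they mark TGACG, the core of the cAMP response element, read here on the opposite strand.

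EGR1: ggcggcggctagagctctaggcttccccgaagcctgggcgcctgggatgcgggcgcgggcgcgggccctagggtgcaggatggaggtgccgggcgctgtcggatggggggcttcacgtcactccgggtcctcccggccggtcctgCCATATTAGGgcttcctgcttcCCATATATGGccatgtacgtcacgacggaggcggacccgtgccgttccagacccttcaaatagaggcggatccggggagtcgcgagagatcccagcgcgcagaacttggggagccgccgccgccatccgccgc

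SRF: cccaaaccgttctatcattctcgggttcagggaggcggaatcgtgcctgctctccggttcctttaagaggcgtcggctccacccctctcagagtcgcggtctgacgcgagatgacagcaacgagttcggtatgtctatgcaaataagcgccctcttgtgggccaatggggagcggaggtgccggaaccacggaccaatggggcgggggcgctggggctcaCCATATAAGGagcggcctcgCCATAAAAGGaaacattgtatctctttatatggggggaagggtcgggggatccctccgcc

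EGR2: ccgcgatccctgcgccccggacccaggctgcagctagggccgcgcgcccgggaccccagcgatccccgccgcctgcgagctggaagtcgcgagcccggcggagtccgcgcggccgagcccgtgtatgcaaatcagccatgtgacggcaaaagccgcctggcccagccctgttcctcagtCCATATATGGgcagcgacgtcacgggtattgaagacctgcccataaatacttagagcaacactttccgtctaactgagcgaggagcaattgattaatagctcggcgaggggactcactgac

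IER2: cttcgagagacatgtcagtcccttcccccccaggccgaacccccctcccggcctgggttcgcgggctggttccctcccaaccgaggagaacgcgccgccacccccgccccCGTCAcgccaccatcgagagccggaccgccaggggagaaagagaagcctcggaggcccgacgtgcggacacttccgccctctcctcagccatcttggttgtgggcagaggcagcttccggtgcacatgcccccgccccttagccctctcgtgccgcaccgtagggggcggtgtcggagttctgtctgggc

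EGR1 held 2 CArG boxes, starting 105 and 83 bases before the transcript start, SRF held 2 at 30 and 10 bases before it, and EGR2 held 1 at 71 bases before it. Among 35116 RefSeq promoter windows of the same length from 27305 genes, 1.29% held a CArG box on either strand. Windows of 7 members were searched: EGR1, EGR2, IER2, IER5, KLF6, NR4A1 and SRF, with 11 windows in all since EGR2, NR4A1 and SRF have several starts. The TGACG core, which also lies within the full element, was in at least 1 window of EGR1, EGR2, IER2 and SRF and in 24.6% of all windows. The full palindrome TGACGTCA (1.85% of all windows) and the AP-1 site TGANTCA (7.71%) were in none of the 11. The EGR site GCGNGGGCG (9.43% of all windows) was found in EGR1, EGR2, KLF6 and SRF, the E-box CACGTG (7.26%) in EGR2 and KLF6, and the GC box GGGCGG (45%) in EGR2, IER2, KLF6, NR4A1 and SRF. All were searched on both strands, and the EGR sites of SRF and KLF6 each overlap a GC box. These matches describe letters only, and binding was not measured.

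Per length of transcript, the members spanned more than 3 orders of magnitude in level. IER3, whose product acts in survival and stress signalling, stood highest at 138 ± 9.08 FPKM with RBM24 and 139 ± 6.34 FPKM with the control plasmid (SD, n = 3 each). MYC followed at 34.3 ± 1.07 FPKM with RBM24 and 36.4 ± 0.841 with control, then IER2, IER5, SRF and EGR1. KLF6 lay at 5.25 ± 0.365 FPKM with RBM24 and 5.19 ± 0.296 with control. NR4A1, EGR2 and EGR3 were all under 1 FPKM, EGR3 the lowest at 0.0733 ± 0.0115 with RBM24 and 0.10 ± 0.0265 with control. The order was the same in both groups. Neighbours in it did not overlap between their libraries in either group, with 1 exception: SRF, at 13.5 ± 0.0866 FPKM with RBM24 and 12.2 ± 0.674 with control, overlapped EGR1, at 12.6 ± 1.44 with RBM24 and 11.8 ± 0.647 with control.

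**Figure D1:**
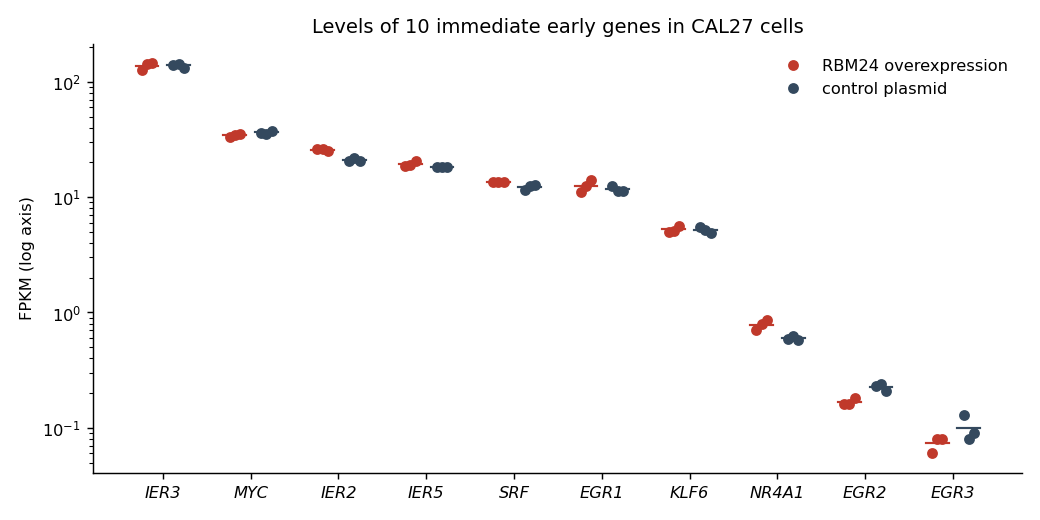
FPKM of each gene in each library on a log axis, RBM24 libraries in red left of the control libraries in dark blue, with a short line at each group mean (n = 3 each). IER3 is highest at 138 FPKM with RBM24 and 139 with control, and NR4A1, EGR2 and EGR3 lie under 1.

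With RBM24, IER2 rose and the other 9 members did not pass the test (quasi-likelihood F test of edgeR, called where the p adjusted by Benjamini-Hochberg over all 17887 genes was under 0.05). Across all tested genes 0.855% rose and 0.682% fell, 1.54% in either direction, and a single called gene among 10 is too few to read as a share. In RNA from whole cultures, a difference in the share of cells that express a gene and a difference in RNA per cell cannot be told apart. Positive and negative log2 fold changes were split evenly, 5 and 5, with a median of 0.02, against 0.00 over all tested genes. The median absolute log2 fold change was 0.12 among the members and 0.09 over all genes. In summed level the groups overlapped, with 659 to 706 CPM (counts scaled to an equal library total) over the members in RBM24 libraries and 654 to 694 in control libraries. Unadjusted p was under 0.05 for 5 of the 10 (IER2, NR4A1, MYC, EGR2 and SRF), against 13% of all genes. CPM values of the groups did not overlap for 7 of 10 members, 4 higher and 3 lower with RBM24, where 18.1% of all tested genes separated in either direction. On FPKM values 6 of 10 separated, since EGR3 shares a value of 0.08 between the groups.

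**Figure D2:**
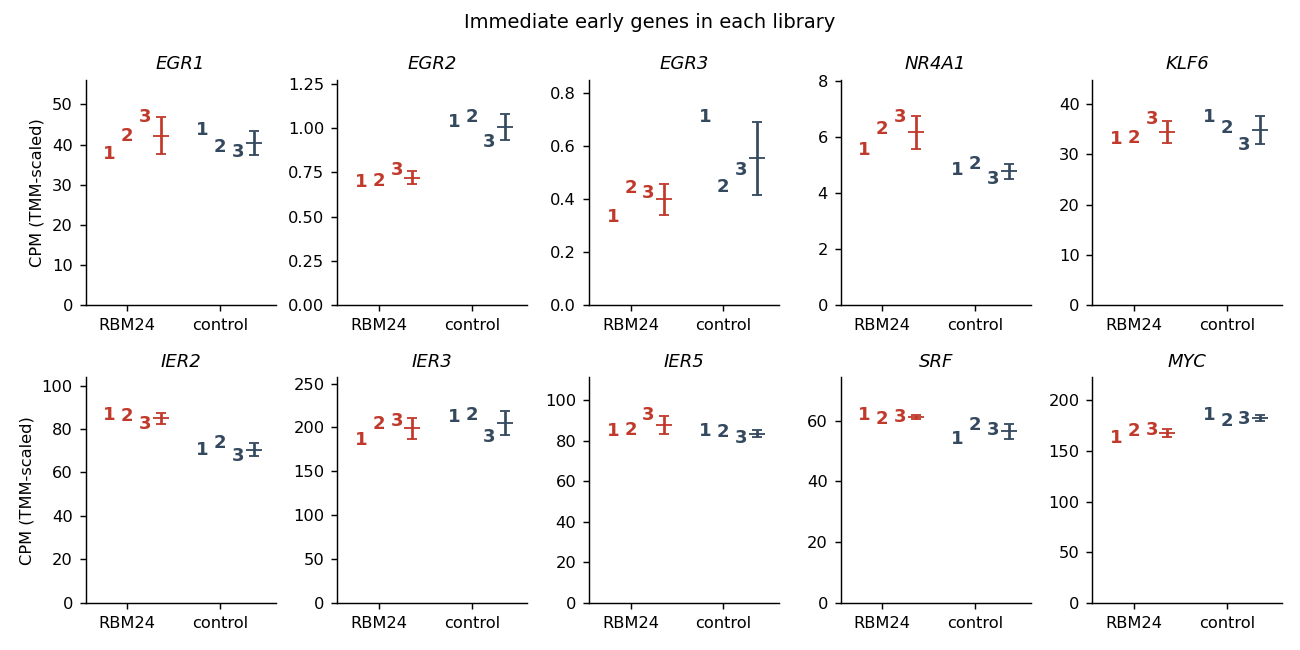
CPM (scaled by TMM factors) of each gene, RBM24 libraries in red and control libraries in dark blue, with the digit naming the library and the bar showing the mean and SD (n = 3 each). IER2 and NR4A1 lie higher in all RBM24 libraries, EGR2 and MYC lower, and EGR1, IER3 and KLF6 overlap.

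Among the IER genes, IER2 (chromosome 19, 13150415 to 13154908, GRCh38, GENCODE 29), which encodes a nuclear protein linked to transcription and cell motility, had 86.4, 86.1 and 82.2 CPM in RBM24 libraries and 70.4, 73.5 and 67.8 CPM in control libraries. The lowest RBM24 library lay above the highest control library. Means were 84.9 ± 2.37 CPM with RBM24 and 70.6 ± 2.87 with the control plasmid (SD, n = 3 each), so IER2 was 20.3% higher, a log2 fold change of 0.27 (SE 0.0501, 95% interval 0.16 to 0.37; edgeR adjusted p = 0.0115). Raw counts were 4657 to 5968 with RBM24 and 3872 to 4266 with control, deep enough that counting error (1.38% and 1.58%) was under the spread between libraries (2.79% and 4.06%). A gene on the opposite strand overlaps IER2 but averaged 0.421 CPM, and the antisense genes over IER3, NR4A1 and EGR3 averaged 0.651, 0.00268 and 0.0597 CPM. The call ended without RBM24 library 1 (adjusted p = 0.0727), without RBM24 library 2 (0.104) and by limma on log2(FPKM + 1) with no filter (0.101), with the log2 fold change between 0.24 and 0.30 in every alternative.

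IER5, which encodes a regulator of protein phosphatase 2A and heat shock factor, had 85.1, 85.2 and 92.8 CPM in RBM24 libraries and 84.9, 84.5 and 81.5 CPM in control libraries. These groups were separated by a thin margin, and the log2 fold change of 0.07 did not pass (SE 0.0508, 95% interval -0.04 to 0.18, adjusted p = 0.615). Without RBM24 library 3, the highest, it was 0.03. Dividing the IER2 count by the IER5 count within a library, a ratio free of library scaling that was chosen after the values were seen, gave 1.02, 1.01 and 0.885 in RBM24 libraries and 0.829, 0.870 and 0.832 in control libraries. These ratios do not overlap, and the exact two-sided permutation p of 0.1 is the smallest that 3 against 3 libraries allow. Since IER2 alone was already seen to separate the groups, the ratio adds no support of its own.

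IER3 (chromosome 6, 30743199 to 30744554) was the most abundant member. Its values were 185.3, 204.5 and 207.2 CPM in RBM24 libraries and 211.9, 214.2 and 189.5 CPM in control libraries, which overlap. The log2 fold change was -0.04 (SE 0.0590, 95% interval -0.17 to 0.08, adjusted p = 0.816), and without RBM24 library 1 it was 0.01. Its spread of 6.00% with RBM24 and 6.64% with control was far above the counting error of 0.905% and 0.924%.

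**Figure D3:**
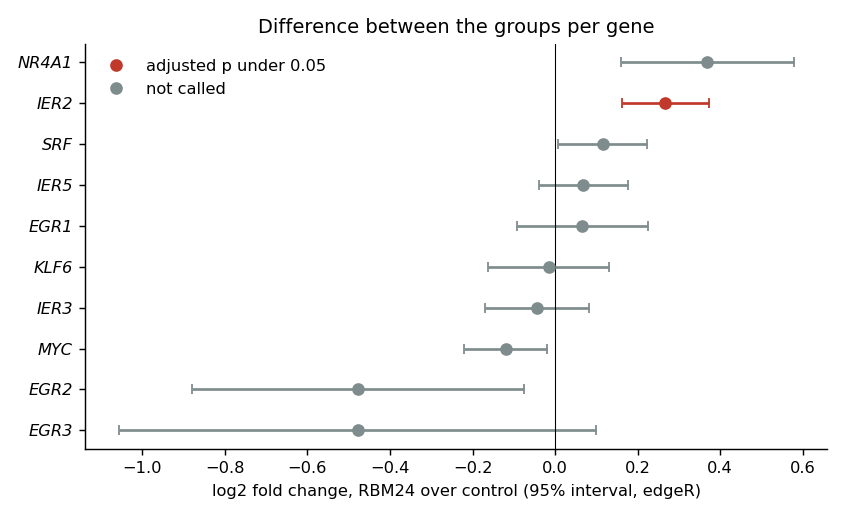
Log2 fold change of RBM24 over control for each gene with its 95% interval from edgeR (n = 3 each), red where the adjusted p is under 0.05. IER2 at 0.27 is the only red point, NR4A1 at 0.37 has a wider interval, and EGR2 and EGR3, both at -0.48, have the widest.

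In the EGR family of zinc finger factors, which bind GC-rich sites, none of the members passed. EGR1 (chromosome 5, 138465490 to 138469315) had 37.7, 42.3 and 46.8 CPM in RBM24 libraries and 43.7, 39.4 and 38.1 CPM in control libraries. The RBM24 libraries span the whole control range, with a log2 fold change of 0.07 (SE 0.0749, 95% interval -0.09 to 0.22, adjusted p = 0.777) that was -0.02 without RBM24 library 3. EGR2, known from hindbrain and Schwann cell development, had 48, 38 and 47 counts in RBM24 libraries and 57, 57 and 58 in control libraries. That is 0.695, 0.702 and 0.764 CPM with RBM24 and 1.04, 1.06 and 0.922 CPM with control, with no overlap. The log2 fold change of -0.48 did not pass (SE 0.190, 95% interval -0.88 to -0.08, adjusted p = 0.282), and at these counts the counting error alone is 15.0% and 13.2% of the mean. The observed spread was smaller, 5.22% with RBM24 and 7.36% with control, so the libraries of a group were unusually close to each other.

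EGR3 was rarer still, at 23, 24 and 26 counts in RBM24 libraries and 39, 24 and 32 in control libraries. Its CPM values stopped just short of overlapping, at 0.333 to 0.444 with RBM24 and 0.446 to 0.709 with control, and control library 1 was the highest. The log2 fold change was -0.48 (SE 0.273, 95% interval -1.06 to 0.10, adjusted p = 0.494), and without control library 1 it was -0.27. The count of EGR1 divided by that of EGR2, a ratio chosen after the values were seen, was 54.2, 60.2 and 61.3 in RBM24 libraries and 42.2, 37.1 and 41.3 in control libraries. These do not overlap (exact two-sided permutation p = 0.1, the smallest possible). Since EGR2 alone was already seen to separate the groups, the ratio adds no support of its own. For NAB2, a corepressor that binds EGR proteins and is itself an EGR target, the log2 fold change was 0.20 (SE 0.0518, adjusted p = 0.0790), at 47.4 ± 0.939 CPM with RBM24 and 41.4 ± 0.526 with control (SD, n = 3 each). NAB2 also carries the second smallest p among the EGR1 targets. Its relative NAB1 stood at -0.04 (adjusted p = 0.865), and EGR4, the remaining family member, at 0.17 (adjusted p = 0.884).

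NR4A1 (chromosome 12, 52022832 to 52059507), the orphan nuclear receptor Nur77 with known roles in apoptosis and metabolism, had the largest positive difference in the set without passing the test. It had 382, 339 and 412 counts in RBM24 libraries and 265, 270 and 282 in control libraries. In CPM these were 5.53, 6.27 and 6.69 with RBM24 and 4.82, 5.02 and 4.48 with control, without overlap. The log2 fold change was 0.37, or 1.29-fold (SE 0.0988, 95% interval 0.16 to 0.58; edgeR adjusted p = 0.0859). It passed with no filter on low counts (adjusted p = 0.0297), and over all 17 alternatives its adjusted p ran from 0.0297 to 0.433. On log2(FPKM + 1), a scale that understates changes of low genes, its difference was 0.16. Its paralogs lay the other way, NR4A2 at -0.20 (adjusted p = 0.548) and NR4A3 at -0.52 (adjusted p = 0.475), with overlapping groups, and the difference between the paralogs was not tested.

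**Figure D4:**
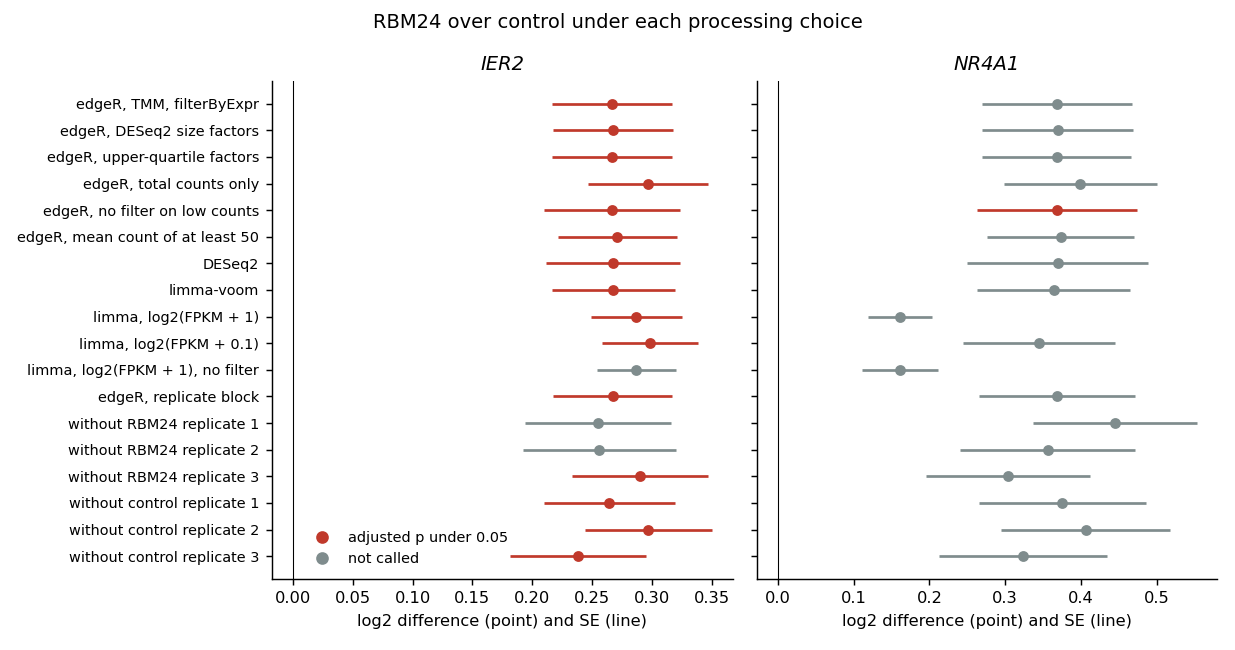
Log2 fold change of RBM24 over control for IER2 (left) and NR4A1 (right) under each processing choice, with the SE as a line and red where the adjusted p is under 0.05. IER2 stays between 0.24 and 0.30 and loses its call without RBM24 library 1 or 2 and on unfiltered FPKM, while NR4A1 is called with no filter on low counts only.

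SRF (chromosome 6, 43171299 to 43181507), the factor through which many of these promoters respond, was slightly higher in each RBM24 library. It had 61.9, 60.7 and 61.1 CPM in RBM24 libraries and 53.9, 58.6 and 57.0 CPM in control libraries. The RBM24 libraries were unusually close to each other, with a spread of 1.01% against a counting error of 1.63%, and the control libraries spread by 4.21%. A log2 fold change of 0.12 did not pass (SE 0.0509, 95% interval 0.01 to 0.22, adjusted p = 0.339). None of its 8 tested cofactors and partners passed. FHL2, a LIM protein that is also a target of SRF, had the smallest p among them (0.15, adjusted p = 0.153), and ELK4 came next (-0.09, adjusted p = 0.636).

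KLF6 (chromosome 10, 3775996 to 3785281), a Krüppel-like zinc finger factor, did not separate the groups. It had 33.1, 33.2 and 37.0 CPM in RBM24 libraries and 37.4, 35.3 and 31.9 CPM in control libraries. The log2 fold change was -0.02 (SE 0.0690, 95% interval -0.16 to 0.13, adjusted p = 0.952), and its sign turned with total-count scaling (0.02), on FPKM values and without single libraries. Of the 13 tested paralogs of the members in the KLF, EGR, NR4A, IER5 and MYC families, none passed in either direction, and 1 was called higher with total-count scaling or with no filter on low counts. KLF2, known as a flow-responsive factor of endothelium, was nearest at 2.40 ± 0.227 CPM with RBM24 and 1.68 ± 0.0383 with control (SD, n = 3 each; log2 fold change 0.51, adjusted p = 0.0698), and KLF3 followed at -0.13 (adjusted p = 0.311).

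MYC, the basic helix-loop-helix proto-oncogene that drives growth and ribosome synthesis, was lower in each RBM24 library by a small margin. It had 163, 170 and 171 CPM in RBM24 libraries and 186, 180 and 182 CPM in control libraries, which do not overlap. The log2 fold change of -0.12, a level 8.0% lower, did not pass (SE 0.0470, 95% interval -0.22 to -0.02, adjusted p = 0.276), and it lay between -0.13 and -0.09 over the 17 alternatives. Of 9 tested partners of the MYC network none passed. The smallest p among them belonged to MXI1, an antagonist that competes for MAX, at -0.15 (adjusted p = 0.287), and to MXD3 at 0.20 (adjusted p = 0.348). None of 20 MYC target genes passed either, with a median log2 fold change of -0.01 and values from -0.07 to 0.12. PPAN (0.12, adjusted p = 0.555) and NCL (0.08, adjusted p = 0.595), both of ribosome biogenesis, had the smallest p.

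Within each group, several members were high or low in the same libraries. RBM24 library 1 held the lowest value of its group for 8 of 10 members, all but IER2 and SRF, and RBM24 library 3 the highest for 7. Control library 3 was the lowest of its group for 7 of 10, and held the highest for 0. EGR1, EGR2, NR4A1, IER3, IER5 and KLF6 were lowest in RBM24 library 1 and highest in RBM24 library 3, and lowest in control library 3. Over the 6 libraries, the closest pairs by root-mean-square distance of centred log2 CPM were IER3 and KLF6 at 0.0560, IER5 and KLF6 at 0.0648 and SRF and IER5 at 0.0671. IER2 was nearest to SRF at 0.0879. The 5 protein-coding genes nearest to the mean profile of the 10 members, out of 10512 that vary at least as much, were ZNF597, TAP1, LZTFL1, C12orf75 and SP100, at distances of 0.0213 to 0.0265. None of these 5 passed the test. The mean profile itself runs only from -0.09 to 0.08, so that closeness to it is common.

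Upstream of these genes, DUSP5 alone passed the test among the listed transcripts of the growth factor and ERK pathway. Across all tested genes 1.54% passed in either direction, so 1 call in lists of this size is too few to read as a share. None of 9 ligands and receptors passed: BTC, a ligand of the EGF receptor, stood at -0.19 (adjusted p = 0.364), EREG at -0.08 (adjusted p = 0.704), and EGFR averaged 504 CPM with RBM24 and 505 CPM with control. None of 16 RAS and ERK cascade genes passed, with values from -0.11 to 0.09, RPS6KA3 (-0.11, adjusted p = 0.409) and MAP2K1 (0.09, adjusted p = 0.493) having the smallest p. Of 12 feedback inhibitors, DUSP5, a nuclear ERK phosphatase, rose to 62.3 ± 1.81 CPM with RBM24, against 53.1 ± 1.86 with control (SD, n = 3 each; log2 fold change 0.23, SE 0.0515, edgeR adjusted p = 0.0303). The remaining 11 missed the threshold. The DUSP5 call ended when any 1 RBM24 library or control library 3 was left out (adjusted p 0.0843 to 0.195) and by limma on FPKM (0.0527 to 0.128). RNA levels do not show kinase activity, which was not measured.

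Of the 8 AP-1 immediate early genes, FOS rose and the others did not pass. With no filter on low counts 2 of the 8 were called higher and 2 lower, with total-count scaling or without control library 2 the number higher was 2, and without control library 3 the number lower was 1. It had 4.75, 4.60 and 4.31 CPM in RBM24 libraries and 2.78, 2.18 and 2.24 CPM in control libraries (log2 fold change 0.93, SE 0.117, edgeR adjusted p = 4.73e-04). The FOS call ended by limma on unfiltered log2(FPKM + 1) (adjusted p = 0.101). Like IER2 it was higher in all RBM24 libraries, while EGR1, which is often induced beside both, had overlapping groups.

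Among 15 tested targets of SRF and MRTF, a list that includes SRF itself and FHL2, 1 rose and 0 fell. CCN2, a matrix-associated growth factor, had 52.3, 55.6 and 58.0 CPM in RBM24 libraries and 38.8, 39.0 and 42.3 CPM in control libraries (log2 fold change 0.47, SE 0.0582, edgeR adjusted p = 4.24e-04). Its call ended by limma on unfiltered log2(FPKM + 1) (adjusted p = 0.130), and 2 genes of the list were called higher by DESeq2 or with total-count scaling. It is also known as a target of YAP. Log2 fold changes were positive in 14 of 15, against 48.6% of all tested genes, with a median of 0.13, against 0.00 over all tested genes, in a list from which 1 gene was left out after its values were seen. The negative value was that of ACTA2, smooth muscle actin, at -0.18 (adjusted p = 0.583). Values of the remaining members were small, such as CCN1 at 0.18 (adjusted p = 0.0856), ACTB at 0.12 (adjusted p = 0.445) and VCL at 0.01 (adjusted p = 0.943).

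Of 13 EGR1 targets, 0 rose and ICAM1, a leukocyte adhesion molecule that NF-kB also drives, fell to 526 ± 42.3 CPM with RBM24, against 681 ± 69.1 with control (SD, n = 3 each; log2 fold change -0.37, edgeR adjusted p = 0.0159). With RBM24 library 1 left out the adjusted p of ICAM1 was 0.0951, with RBM24 library 2 left out 0.103, and by limma on FPKM it was 0.151 to 0.335, which ends the call. None of the 4 tested EGR and NR4A corepressors and partners passed, NAB2 and RXRB (-0.04, adjusted p = 0.825), a dimer partner of nuclear receptors, having the smallest p. By DESeq2 and with total-count scaling, 1 gene of this list and 1 of the EGR1 targets were called higher. Of 14 genes listed for the turnover of AU-rich mRNAs, BTG2 fell to 8.53 ± 0.599 CPM with RBM24, against 10.8 ± 0.660 with control (SD, n = 3 each, log2 fold change -0.35, edgeR adjusted p = 0.0466). BTG2 is itself an immediate early and p53-induced gene that recruits deadenylases. The BTG2 call ended under 10 of 17 alternatives, among them the removal of any 1 library other than control 3 (adjusted p 0.0591 to 0.258) and limma on FPKM (0.151 to 0.284). With no filter on low counts, by DESeq2 or without control library 3, 2 of the 14 were called lower.

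**Figure D5:**
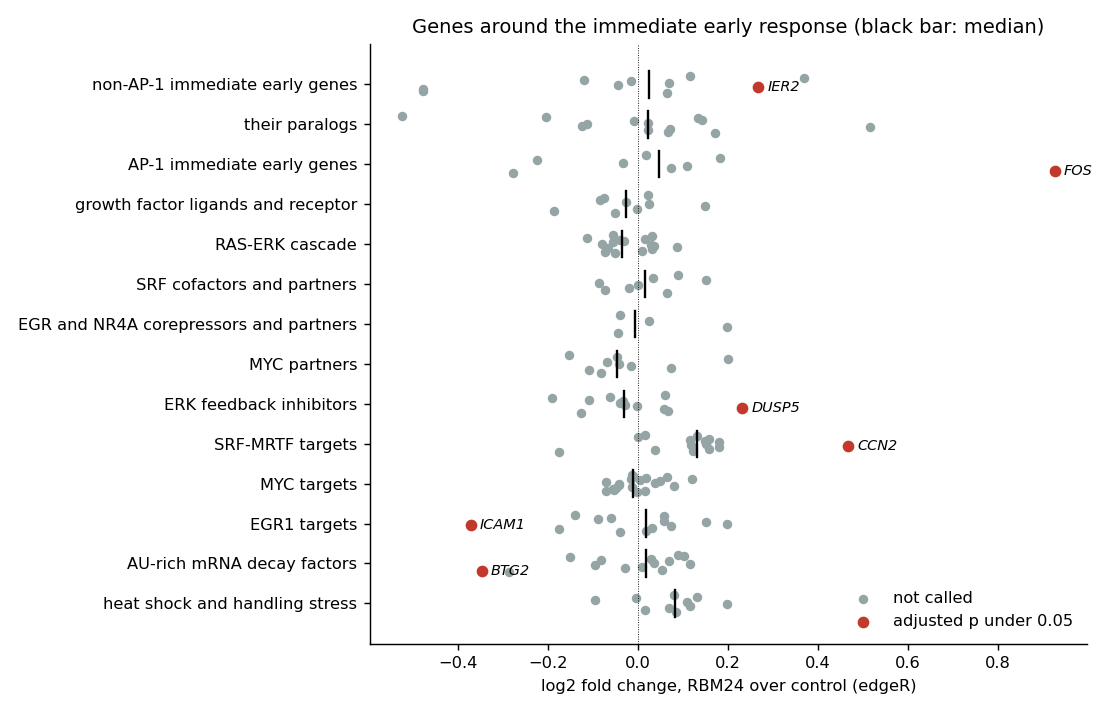
Log2 fold change of RBM24 over control for each tested gene of each list, red and named where the adjusted p is under 0.05, with a black bar at the list's median. The red points are IER2, FOS, DUSP5 and CCN2 to the right of 0 and ICAM1 and BTG2 to the left.

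Other measures moved with the groups beside the IER2 result. Heat shock genes, which encode chaperones, summed to 5287 to 5511 CPM in RBM24 libraries and 5107 to 5239 CPM in control libraries, without overlap. Log2 fold changes were positive for 8 of 10 of these genes, against 48.6% of all tested genes. None passed: HSPA1A stood at 0.20 (adjusted p = 0.0718) and HSPA1B at 0.11 (adjusted p = 0.355). In 4 of 17 alternatives 1 heat shock gene was called higher. Mitochondrial transcripts took 7.26% to 7.75% of counts in RBM24 libraries and 8.05% to 8.40% in control libraries. Squamous markers summed to 2424 to 2457 CPM in RBM24 libraries and 2221 to 2316 CPM in control libraries, and none of the 12 passed, SFN (0.24, adjusted p = 0.0509) and CDH1 (0.17, adjusted p = 0.106) being nearest. In 7 of 17 alternatives 1 or 2 squamous markers were called higher. Some other list sums separated as well. The SRF and MRTF targets counted above summed to 8798 to 9302 CPM with RBM24 and 7981 to 8769 with control. AU-rich mRNA decay factors summed to 2276 to 2322 CPM with RBM24 and 2247 to 2264 with control. MYC partners were lower, at 343 to 348 CPM with RBM24 and 349 to 354 with control. Sums of the remaining lists overlapped. The part of these differences in the IER2 result was not tested. Summed markers of other cell types overlapped between the groups, at 15.9 to 16.9 CPM with RBM24 and 13.7 to 16.4 with control for fibroblasts, 19.2 to 20.02 with RBM24 and 18.7 to 21.8 with control for immune cells, and 8.69 to 9.72 with RBM24 and 9.53 to 11.7 with control for endothelium. For the fibroblast list COL1A2 (0.66, adjusted p = 0.182) and LUM (-0.48, adjusted p = 0.488) had the smallest p, for the immune list CD14 (-0.06, adjusted p = 0.790) and CD68 (0.02, adjusted p = 0.977), and for the endothelial list CDH5 (-0.24, adjusted p = 0.255) and PECAM1 (-0.26, adjusted p = 0.843). Without control library 1, which stood apart, IER2 had a log2 fold change of 0.26 (adjusted p = 0.0298).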

How the data were processed

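HISAT2 and the build GRCh38 are named per the submitters' processing notes. The sources used here do not give the version, the gene counter, the annotation release or strandedness. The authors deposited raw counts per gene and FPKM values with 2 decimals, a unit that by definition is scaled by gene length and library total. Columns marked NC were read as control plasmid and OE_RBM24 as overexpression.

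Counts were fitted in R 4.3.3 with edgeR 4.0.16: filterByExpr, TMM factors (0.976 to 1.02), a quasi-likelihood F test on group alone, and Benjamini-Hochberg adjustment over 17887 genes, called under 0.05. The biological coefficient of variation was 0.0645. CPM are counts scaled to an equal TMM-scaled total. Only the CPM of the overlapping genes on the opposite strand were scaled to the library total without TMM factors. SEs are the fold change over the square root of F. Counts were also simulated on 17887 genes with the dispersions fitted to these data. At each fold 50 genes were changed, drawn from those above a low limit on the mean count. Recovery was 56% at 1.25-fold and 86% at 1.5-fold, with 16 of 184 calls false. It was not split by expression level and so does not give the recovery of genes with few counts. Chi-square per gene between library pairs lay between 5.29 and 41.5, so no library repeated another.

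Members and lists were chosen with earlier results of these data known. Besides the 10 members and RBM24, the text names the called genes of each list, or else the 2 with the smallest p, and the 5 genes nearest to the members' mean profile. Genes named beyond that rule (such as KRT5, KRT14, TP63, NAB1, EGR4, NR4A2, NR4A3, EGFR, CCN1, ACTB, VCL, ACTA2, COL1A1, PDGFRB, VWF, CD3E and PTPRC) were chosen after their values were seen. 1 gene of the SRF and MRTF target list is not reported here and was left out of that list's counts after its values were seen. Coordinates come from GENCODE 29, which holds 31353 of 32353 gene IDs, and promoters from RefSeq. Alternatives were other scaling factors, no filter or a minimum mean count of 50, limma 3.58.1 (voom, and log2(FPKM + 1) or log2(FPKM + 0.1)), DESeq2 1.42.0, the replicate number as a block, and each library left out in turn. Python 3.11.15 with pandas 2.3.3, scipy 1.17.1 and matplotlib 3.10.9 made tables and figures. The 95% intervals on log2 fold changes were built from the SEs of the edgeR fit and so include the spread between libraries.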

Additional observations from a re-analysis of the deposited data

How the results depend on the processing

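IER2 kept its direction under all 17 alternatives and its call under 14; the exceptions were limma for unfiltered log2(FPKM + 1) and the fits without RBM24 library 1 or 2. The number of members called higher was 2 with no filter on low counts, where NR4A1 joined, 0 for unfiltered log2(FPKM + 1), and 0 to 1 when each library was left out. The number called lower was 0 in every alternative. Over all genes, 153 rose and 122 fell. These became 305 and 341 with no filter on low counts, 46 and 4 on log2(FPKM + 1), 57 and 5 on log2(FPKM + 0.1), 15 and 4 for unfiltered log2(FPKM + 1), and 61 to 171 and 29 to 198 when each library was left out. Total-count scaling gave 223 and 106. KLF6, at -0.02, turned to 0.015 with total counts, 0.0142 on log2(FPKM + 1) with or without a filter and 0.0165 on log2(FPKM + 0.1), and ranged from -0.0765 to 0.0367 without single libraries. EGR1 ranged from -0.0153 to 0.143 and IER3 from -0.0989 to 0.00587 in the same fits. The cause of these turns was not tested.

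Replicate numbers are shared between the groups, but same-numbered libraries did not deviate together (correlations of deviations from the group means of 0.00724, 0.0555 and -0.00039). With the replicate block 158 genes rose and 135 fell, and among members IER2 kept its call (log2 fold change 0.27, adjusted p = 0.0118). BTG2 had an adjusted p of 0.0516 in that fit. DESeq2 gave EGR2 and EGR3 no adjusted p, and a mean count of at least 50 left out EGR3. At 23 to 58 counts per library, depth limits EGR2 and EGR3. On log2(FPKM + 1) their differences were -0.07 and -0.04, since the pseudocount exceeds their values.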
